A study of Mus musculus with 12 samples.

Results

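The transcripts described here are those of *Mpo*, *Elane*, *Prtn3*, and *Ctsg*, the peroxidase and the serine proteases of the primary (azurophil) granule. They were chosen by name, with their course over time in these data already known, and are 4 of the 23309 genes listed. All 4 were measured in each of the 12 libraries, and all 4 passed the filter on low values, which 11516 genes passed. RNA-seq was performed on wild-type (WT) and HMGN1-OE progenitors at 0, 36, and 96 h after withdrawal of estradiol (E2), with 2 libraries in each of the 6 groups. The progenitors were CD117+ mouse bone marrow cells of either genotype that were transduced with a retroviral fusion of the estrogen receptor with HoxB8 and grown in IL-3. The fusion is active in the presence of E2 and holds the cells immature, so that every group carries ER-HoxB8 and the 0 h groups are undifferentiated cells in E2. HMGN1-OE progenitors come from a transgenic mouse that expresses human HMGN1 in addition to the endogenous gene. Whether the 2 libraries of a group came from separate mice is not given in the sources used here, so p-values rest on the spread between these libraries only. That spread was taken from a trend over all genes and not from each gene's own libraries.

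Primary granules form in promyelocytes, and the messages of their proteins are among the most abundant of that stage. The messages are made in a narrow window, before the secondary and tertiary granule proteins appear, and are shut off as the cells pass to the myelocyte stage, whereas the proteins stay stored in the granules for the life of the neutrophil. MPO turns hydrogen peroxide and chloride into hypochlorous acid. Neutrophil elastase (*Elane*), proteinase 3 (*Prtn3*), and cathepsin G (*Ctsg*) are serine proteases that are made as inactive precursors, trimmed by the dipeptidyl peptidase cathepsin C, and packed on the proteoglycan serglycin.

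*Elane* and *Prtn3* lie next to each other on the same strand of chromosome 10, *Mpo* lies on chromosome 11, and *Ctsg* lies on the reverse strand of chromosome 14 between *Mcpt8* and the granzyme genes. The 250 bases before each start are shown because the 4 genes are often treated as one myeloid program, and their upstream sequences can be read side by side. All 4 genes matched an entry of the RefSeq table of build GRCm38.p6, in which the windows are chr11:87793534-87793783 on the plus strand for *Mpo*, chr10:79886062-79886311 on the plus strand for *Elane*, chr10:79879417-79879666 on the plus strand for *Prtn3*, and chr14:56102575-56102824 on the minus strand for *Ctsg*. Capitals mark AGGAAGT, the core bound by PU.1 and other ETS factors, and TATAA or its reverse complement, and the last base printed lies just before the start.
Mpo: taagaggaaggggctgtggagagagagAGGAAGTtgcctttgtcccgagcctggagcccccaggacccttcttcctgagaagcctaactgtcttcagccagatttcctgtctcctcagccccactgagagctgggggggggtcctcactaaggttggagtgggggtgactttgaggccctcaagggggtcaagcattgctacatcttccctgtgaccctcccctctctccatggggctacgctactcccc
Elane: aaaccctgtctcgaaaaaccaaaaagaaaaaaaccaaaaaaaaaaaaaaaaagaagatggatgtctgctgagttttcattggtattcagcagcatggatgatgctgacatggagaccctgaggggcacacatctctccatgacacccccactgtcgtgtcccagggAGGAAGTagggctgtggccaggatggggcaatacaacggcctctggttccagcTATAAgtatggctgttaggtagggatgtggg
Prtn3: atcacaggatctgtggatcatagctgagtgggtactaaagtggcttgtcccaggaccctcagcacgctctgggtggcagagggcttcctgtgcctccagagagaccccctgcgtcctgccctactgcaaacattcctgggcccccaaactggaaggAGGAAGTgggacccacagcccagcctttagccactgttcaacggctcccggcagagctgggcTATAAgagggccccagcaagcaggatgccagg
Ctsg: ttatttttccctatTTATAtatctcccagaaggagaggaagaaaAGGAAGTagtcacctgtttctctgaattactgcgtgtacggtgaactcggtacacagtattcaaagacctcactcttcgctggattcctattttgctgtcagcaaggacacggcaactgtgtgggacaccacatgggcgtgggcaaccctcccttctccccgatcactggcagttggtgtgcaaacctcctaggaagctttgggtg
AGGAAGT was found in all 4 windows and in 7.70% of the 32536 windows of the same length, searched on both strands. It lay 223 bases before the start of *Mpo*, 84 before *Elane*, 94 before *Prtn3*, and 206 before *Ctsg*. TATAA was found 31 bases before the start of *Elane* and 32 before that of *Prtn3*, and on the opposite strand 236 bases before *Ctsg*. It was not found for *Mpo*, and 22.7% of all windows held it. AACNG, the core of the Myb site, was in all 4 windows and in 74.1% of all windows. TGNGGT, the core of the Runx site, was in the window of *Ctsg* only, against 40.2% of all windows. TTGCNNAA, a core bound by C/EBP factors, was in none of the 4 and in 9.57% of all windows. The letters searched were chosen after the sequences were seen, and a match is a description of the letters alone.

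Before the members are described, libraries that stood apart have to be named. The second WT 36 h library held progenitor transcripts at or above the level of most 0 h libraries. *Flt3*, a receptor of early progenitors, was 67.0 FPKM in it, against 4.10, 7.53, and 9.31 in the other 36 h libraries and 47.5 to 82.2 at 0 h. *Cd34* was 1105 FPKM in it, 259 to 337 in the other 36 h libraries, and 467 to 695 at 0 h. *Meis1*, at 15.2, lay within the 0 h range, and *Sox4*, at 48.2, above the 26.5 to 40.0 of the 0 h libraries. These values go against its 36 h label, and this doubt holds for every WT 36 h value given here. Other genes lay outside their 0 h range in it. *Cebpe* was 102 FPKM in it, 58.8 to 95.4 in the other 36 h libraries, and 19.3 to 43.2 at 0 h. *Kit*, also a progenitor marker, was 63.3, 28.3 to 71.1, and 12.1 to 47.6. *Ltf* was 1.97, 0.361 to 3.13, and 7.19 to 22.0. Which label the library should carry was not tested. The second WT 96 h library had the lowest sum of FPKM of all, 228955, and in the first WT 36 h library the mast cell and basophil transcripts *Cpa3*, 2013 FPKM, and *Ms4a2*, 62.0 FPKM, were the highest of the 12. The changes over time and the calls of the members are given with and without the second WT 36 h or the second WT 96 h library, and for the other genes the losses of a call are named. The part of these libraries in the results was not tested.

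**Figure D1:**
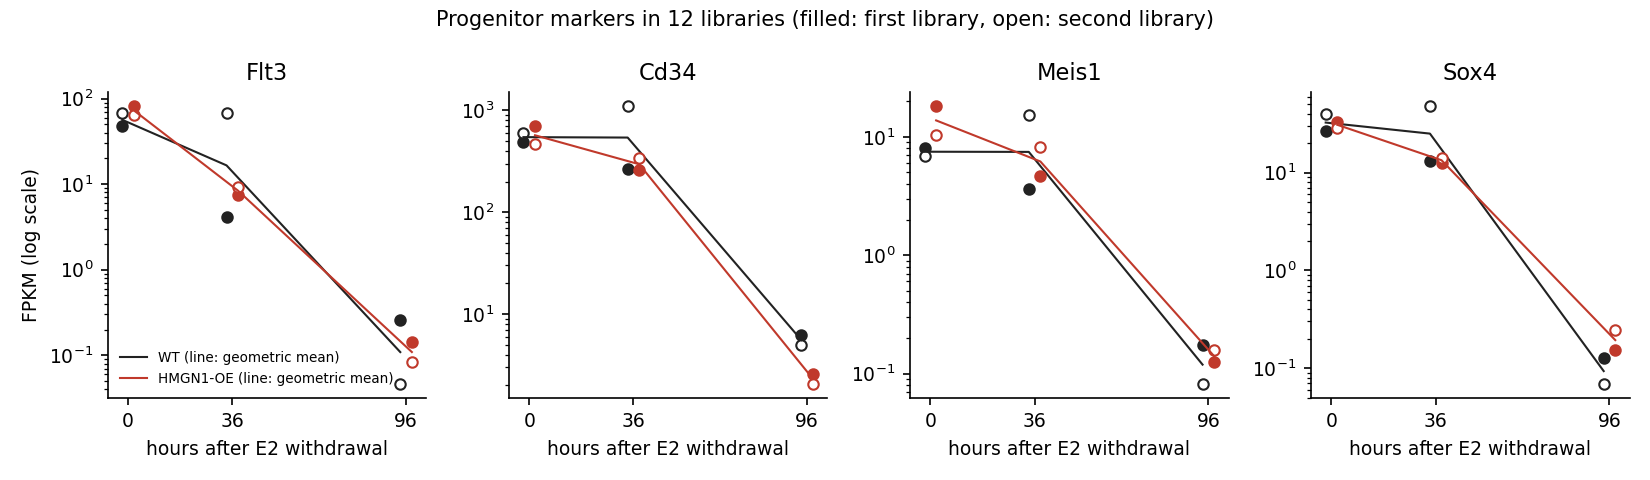
FPKM (log axis) of the progenitor markers Flt3, Cd34, Meis1, and Sox4 by hours after E2 withdrawal, with WT in black, HMGN1-OE in red, filled points for the first and open points for the second library of a group, and lines through the geometric means. The open WT point at 36 h lies among the 0 h points for Flt3, at 67.0, and Meis1, and above them for Cd34, at 1105, and Sox4, and the values at 96 h lie near the lowest level of the table for all but Cd34.

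The sum of FPKM per library ran from 228955 to 1442573. The values were scaled to synthetic ERCC RNAs that were added to the RNA extracted from a fixed number of cells, so this sum holds the yield of the extraction as well as the RNA per cell. From 36 to 96 h the median gene was 2.21 lower on the log2 scale in WT and 1.33 lower in HMGN1-OE, and this shift is given beside the members' own. In bulk samples, fewer cells of a type and less RNA per cell cannot be told apart. Neutrophil transcripts marked the 96 h cells: *S100a8* was 29366 to 83718 FPKM at 96 h and 131 to 1411 before. *S100a9* is listed at 0.0511 in the first WT 96 h library, where *S100a8* was 69948, and it enters the fit and the sums as deposited. Of the other genes fixed as neutrophil markers, *Ltf* was at 856 to 2040 FPKM and *Ngp* at 5683 to 13801 at 96 h. Of the 9 neutrophil markers found 6 were called higher at 96 h than at 36 h in WT, against 3.15% of all genes, and 8 in HMGN1-OE, against 4.02%. *Mmp8*, at 33.4 and 60.4 FPKM in WT and 15.3 and 12.5 in HMGN1-OE at 96 h, was called in neither as deposited. With libraries centred on their medians 8 and 9 were called higher, *Mmp8* in both, against 38.2% and 28.6% of all genes. *Epx* and *Prg2*, which mark eosinophils, were also present at 96 h, with *Prg2* at 1970 and 933 FPKM in WT and 186 and 472 in HMGN1-OE. Of the lymphoid markers, *Ms4a1* and *Cd3e* did not exceed 0.105 FPKM in any library, and *Cd79a* reached 1.65 FPKM.

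*Mpo*, the peroxidase, was abundant in WT progenitors before E2 was withdrawn, with 2107 and 4406 FPKM in the first and second library. In HMGN1-OE progenitors it was 540 and 642 FPKM. At 36 h it was 7066 and 5507 in WT and 4147 and 2451 in HMGN1-OE, and at 96 h 116 and 13.5 in WT and 114 and 406 in HMGN1-OE. The genotypes did not overlap at 0 h, where both HMGN1-OE libraries were low, nor at 36 h, where they were again below WT, and they overlapped at 96 h. In both genotypes the 36 h libraries were the highest and did not overlap with those of any other time. *Mpo* was the 7th most abundant transcript of the first WT 36 h library and the 1744th of the second WT 96 h library.

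*Elane*, neutrophil elastase, was the least abundant of the 4 at 0 h. It was 409 and 867 FPKM in WT and 106 and 74.0 FPKM in HMGN1-OE at that time. At 36 h it was 2864 and 1109 in WT and 1772 and 1260 in HMGN1-OE, and at 96 h 129 and 21.7 in WT and 168 and 554 in HMGN1-OE. The HMGN1-OE libraries were below both WT libraries at 0 h, lay between them at 36 h, and were above both at 96 h. The lower of the WT values at 36 h was in the library with high *Flt3*.

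*Prtn3*, proteinase 3, was 978 and 2516 FPKM in WT and 708 and 467 FPKM in HMGN1-OE at 0 h. It was 4647 and 2699 in WT and 3062 and 2412 in HMGN1-OE at 36 h. At 96 h it was the most abundant of the 4 in every library, with 299 and 51.5 in WT and 345 and 853 in HMGN1-OE. As for *Elane*, the HMGN1-OE libraries were low at 0 h and high at 96 h without overlap, and the genotypes overlapped at 36 h.

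*Ctsg*, cathepsin G, was the most abundant of the 4 in each 0 h library, with 3862 and 7413 FPKM in WT and 5683 and 3711 in HMGN1-OE. At 36 h it was 6784 and 7983 in WT and 6209 and 5770 in HMGN1-OE. At 96 h it was 107 and 20.6 in WT and 151 and 479 in HMGN1-OE. The genotypes overlapped at 0 h, and *Ctsg* ranked between the 5th and 11th most abundant transcript in each of the 0 and 36 h libraries, whichever the genotype. Its share of all FPKM in these 8 libraries ran only from 0.527% to 0.683%.

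**Figure D2:**
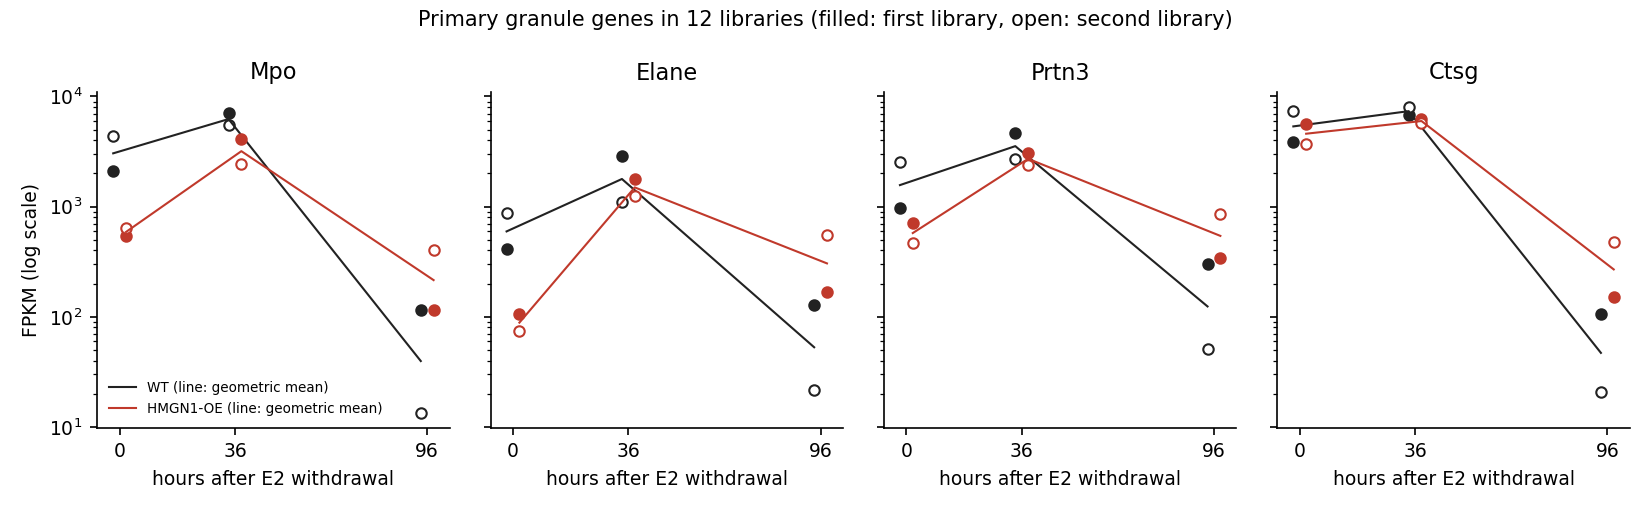
FPKM (log axis) of Mpo, Elane, Prtn3, and Ctsg by hours after E2 withdrawal, with WT in black, HMGN1-OE in red, filled points for the first and open points for the second library of a group, and lines through the geometric means. At 0 h Elane separates the genotypes (106 and 74.0 against 409 and 867) and Ctsg does not, and at 96 h the open WT point is the lowest in each panel.

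The time course held a first step in which *Mpo*, *Elane*, and *Prtn3* were higher at 36 h than at 0 h. Since the genes were chosen for this course, it is described with no test. On the log2 scale of FPKM, the geometric means of the WT libraries differed from 0 to 36 h by 1.58 for *Elane* (2.99-fold), 1.18 for *Prtn3* (2.26-fold), 1.03 for *Mpo* (2.05-fold), and 0.46 for *Ctsg* (1.38-fold). In HMGN1-OE the differences were 4.08 for *Elane* (16.9-fold), 2.44 for *Mpo* (5.41-fold), 2.24 for *Prtn3* (4.72-fold), and 0.38 for *Ctsg* (1.30-fold). *Elane* was thus first and *Ctsg* last in the order of gain in both genotypes. The WT libraries of *Ctsg* overlapped between 0 and 36 h, and those of the other members did not. Of all genes, 95.3% had a higher WT mean at 36 h on log2(FPKM + 1), and the share without overlap was not counted. The median gene was 0.47 higher in WT and 0.06 higher in HMGN1-OE over this interval. Without the second WT 36 h library the WT differences were 2.27 for *Elane*, 1.57 for *Prtn3*, 1.21 for *Mpo*, and 0.34 for *Ctsg*, in the same order. With each library left out in turn they ran from 0.90 to 2.27 for *Elane*, 0.49 to 1.86 for *Prtn3*, 0.50 to 1.57 for *Mpo*, and -0.011 to 0.93 for *Ctsg* in WT.

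In the second step all 4 transcripts were far lower at 96 h, and *Mpo* and *Ctsg* were lost to a greater extent than *Elane* and *Prtn3*. In WT the level at 96 h was 157-fold below that at 36 h for both *Mpo* and *Ctsg*, 33.7-fold below for *Elane*, and 28.5-fold below for *Prtn3*. In HMGN1-OE the same ratios were 22.2-fold for *Ctsg*, 14.8-fold for *Mpo*, 5.01-fold for *Prtn3*, and 4.90-fold for *Elane*. They ran, with each library left out in turn, from 12.5-fold to 39.6-fold for *Ctsg*, 7.86-fold to 28.0-fold for *Mpo*, 3.18-fold to 7.88-fold for *Prtn3*, and 2.70-fold to 8.89-fold for *Elane*, lowest without the first and highest without the second HMGN1-OE 96 h library. No 96 h library overlapped with a 36 h library for any of the 4 genes. The share of all genes without such overlap was not counted, and 86.3% of all genes were called lower in WT and 64.9% in HMGN1-OE. Without the second WT 96 h library, the WT level was 68.8-fold lower for *Ctsg*, 53.6-fold for *Mpo*, 13.8-fold for *Elane*, and 11.8-fold for *Prtn3*. With the second WT 36 h library left out it was 178-fold lower for *Mpo*, 144-fold for *Ctsg*, 54.2-fold for *Elane*, and 37.5-fold for *Prtn3*. The WT ratios were highest without the first WT 96 h library, at 462-fold for *Mpo*, 357-fold for *Ctsg*, 82.2-fold for *Elane*, and 68.8-fold for *Prtn3*. *Mpo* and *Ctsg* stood ahead of *Elane* and *Prtn3* in both genotypes with any 1 library left out, whereas the order of *Mpo* and *Ctsg* in WT, and that of *Elane* and *Prtn3* in both genotypes, changed with the library left out. In HMGN1-OE *Ctsg* stood ahead of *Mpo* with any 1 library left out. Relative to the median gene of each library, on the scale of log2(FPKM + 1), the WT differences were -4.93 for *Ctsg*, -4.92 for *Mpo*, -2.71 for *Elane*, and -2.50 for *Prtn3*, and the HMGN1-OE differences -3.13, -2.54, -0.95, and -0.98.

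**Figure D3:**
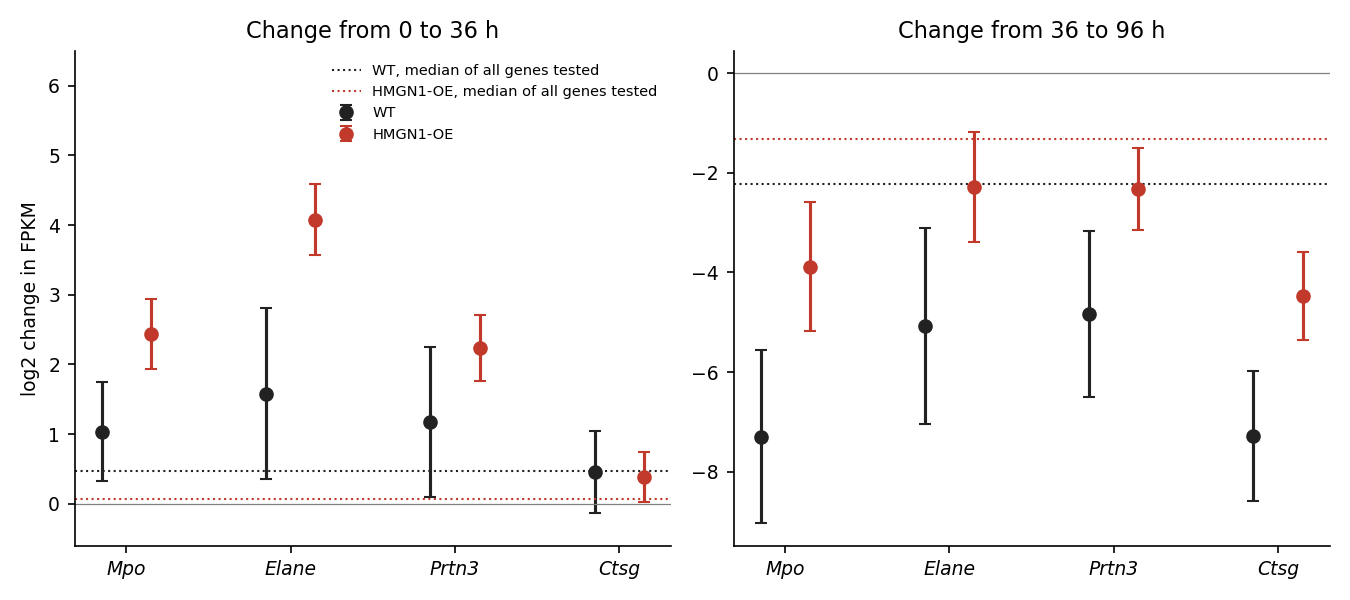
Log2 change in FPKM of each member from 0 to 36 h (left) and from 36 to 96 h (right) in WT (black) and HMGN1-OE (red), as points at the difference of the group means with bars from the lowest to the highest of the 4 differences between single libraries. Dotted lines mark the median of all genes tested, and from 36 to 96 h Mpo and Ctsg, at -7.30 and -7.29 in WT, lie below Elane and Prtn3.

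Over the whole course, the members did not return to the same point. In WT every member was lower at 96 h than at 0 h, 114-fold for *Ctsg*, 76.9-fold for *Mpo*, 12.6-fold for *Prtn3*, and 11.3-fold for *Elane*. These were, without the second WT 96 h library, 50-fold for *Ctsg*, 26.2-fold for *Mpo*, 5.25-fold for *Prtn3*, and 4.62-fold for *Elane*, and without the first 259-fold, 226-fold, 30.5-fold, and 27.5-fold. In HMGN1-OE *Ctsg* was 17.1-fold and *Mpo* 2.74-fold lower at 96 h than at 0 h. *Prtn3* stood at 94.3% of its 0 h level there with overlapping libraries, and *Elane* stood 3.45-fold above its 0 h level with no overlap. Over the single libraries left out, the HMGN1-OE value of *Elane* ran from 1.90-fold (without the second 96 h library) to 6.26-fold (without the first), that of *Prtn3* from 1.67-fold lower to 1.48-fold higher, and *Mpo* was 1.45-fold to 5.16-fold and *Ctsg* 9.60-fold to 30.4-fold lower. Relative to the median gene of each library, on the scale of log2(FPKM + 1), the HMGN1-OE differences from 0 to 96 h were 3.09 for *Elane*, 1.23 for *Prtn3*, -0.13 for *Mpo*, and -2.78 for *Ctsg*, so that *Prtn3* turned in sign and *Mpo* stood near its 0 h level. The WT differences on that scale were -1.61, -1.80, -4.36, and -4.94.

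Ratios of 2 genes within a library are free of a single scale factor for that library, though not of a loess correction, which depends on the level of a gene. They describe how the composition of the primary granule message shifted. *Elane* over *Ctsg* was 0.106 and 0.117 in WT at 0 h, 0.422 and 0.139 at 36 h, and 1.20 and 1.05 at 96 h. In HMGN1-OE it was 0.0186 and 0.0199 at 0 h, 0.285 and 0.218 at 36 h, and 1.11 and 1.16 at 96 h. For *Elane* over *Ctsg* the genotypes were thus apart at 0 h, where the WT ratio was 5.78-fold the HMGN1-OE ratio. For this pair they overlapped at 36 and 96 h. *Mpo* over *Ctsg* at 0 h was 0.546 and 0.594 in WT and 0.0950 and 0.173 in HMGN1-OE, a 4.44-fold difference of the group means. *Prtn3* over *Ctsg* at 0 h was 0.253 and 0.339 in WT and 0.125 and 0.126 in HMGN1-OE, a 2.34-fold difference. Of the 6 pairs of members, *Mpo* over *Elane* was the only pair whose genotypes overlapped at 0 h, with 5.15 and 5.08 in WT and 5.11 and 8.68 in HMGN1-OE. At 36 h the genotypes did not overlap for *Mpo* over *Elane*, *Prtn3*, and *Ctsg*, each lower in HMGN1-OE. The log2 differences of the group means were -0.71, -0.59, and -0.67, and the other pairs overlapped. At 96 h the genotypes did not overlap for *Elane* over *Prtn3* (0.401) and *Prtn3* over *Ctsg* (-0.389). The other pairs overlapped then.

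From 36 to 96 h most ratios shifted without overlap in both genotypes. *Prtn3* over *Ctsg* was at most 0.685 in the 36 h libraries and at least 1.78 in the 96 h libraries. *Mpo* over *Elane* was at least 1.94 at 36 h and at most 0.903 at 96 h, and *Mpo* over *Prtn3* was at least 1.02 and at most 0.475. *Mpo* over *Ctsg* overlapped between the times in WT, with 1.04 and 0.690 at 36 h and 1.09 and 0.654 at 96 h, and not in HMGN1-OE, with 0.668 and 0.425 and then 0.754 and 0.848. *Elane* over *Prtn3* overlapped in both genotypes, with 0.411 to 0.616 at 36 h and 0.421 to 0.649 at 96 h over all libraries. The second WT 36 h library resembled the WT 0 h libraries in these ratios, with *Elane* over *Ctsg* at 0.139 and *Mpo* over *Elane* at 4.97. Its shares of all FPKM, 0.382% for *Mpo*, 0.187% for *Prtn3*, and 0.0769% for *Elane*, lay close to those of the WT 0 h libraries as well, 0.310% and 0.347%, 0.144% and 0.198%, and 0.0601% and 0.0684%.

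**Figure D4:**
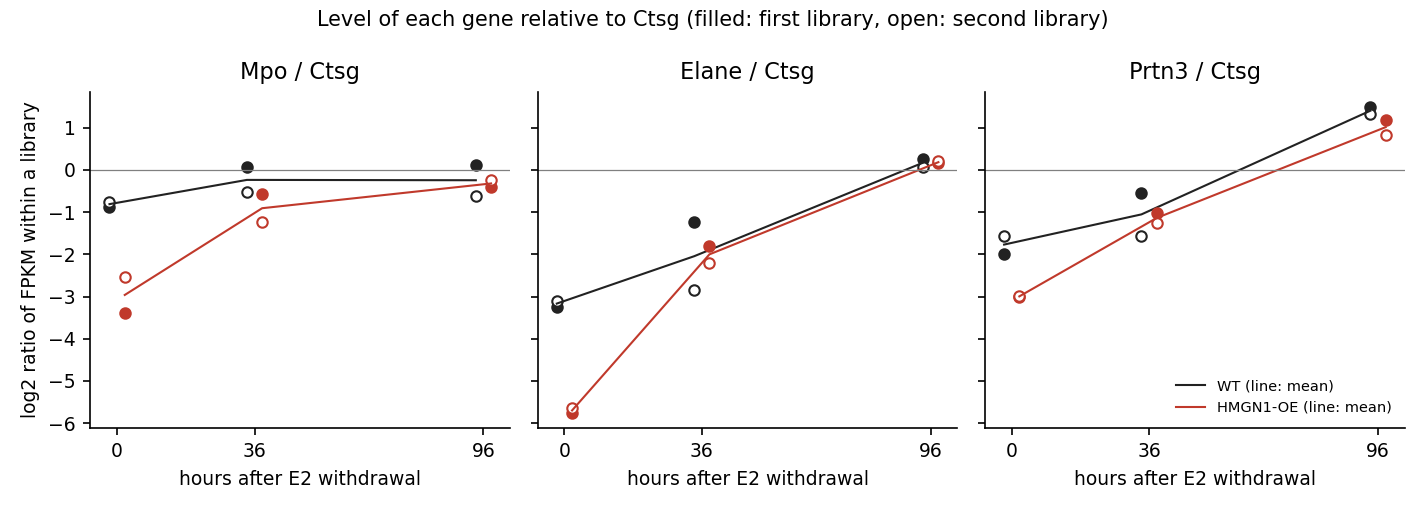
Log2 ratio of the FPKM of Mpo, Elane, and Prtn3 to that of Ctsg within a library by hours after E2 withdrawal, with WT in black, HMGN1-OE in red, filled points for the first and open points for the second library of a group, and lines through the means. All 3 ratios are lower in HMGN1-OE than in WT at 0 h without overlap, and at 96 h Elane lies at about the level of Ctsg (ratio 1.05 to 1.20) and Prtn3 above it (1.78 to 2.79).

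The difference between the genotypes was then tested at each time with limma on log2(FPKM + 1) over the 11516 genes, two-sided, with Benjamini-Hochberg adjustment over all of them. The members were chosen with their values in both genotypes known, so these p-values place them among all genes and are no independent evidence of a difference. Since the log2 scale holds a pseudocount, it understates the change of low genes. At 0 h 2 of the 4 members were called, both lower in HMGN1-OE, against 1.36% of all genes called, 0.564% lower and 0.799% higher. *Elane* differed by -2.74 (SE 0.60, limma adjusted p = 0.00066) and *Mpo* by -2.37 (SE 0.62, limma adjusted p = 0.0109). *Prtn3* differed by -1.45 (95% interval -2.66 to -0.23, limma adjusted p = 0.677) and *Ctsg* by -0.22 (-1.45 to 1.01, limma adjusted p = 1.0), and neither was called. Both HMGN1-OE libraries were below both WT libraries for 3 of 4 members, against 4.67% of all genes, and above both for none, against 3.26%. The median gene differed by -0.12.

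The calls at 0 h rested on single libraries and on the processing. Without the second WT 0 h library, the higher of the WT pair for all 4 members, *Elane* differed by -2.20 (limma adjusted p = 0.251) and *Mpo* by -1.84 (0.831). Without the second HMGN1-OE 0 h library *Elane* differed by -2.48 (0.0948) and *Mpo* by -2.49 (0.112), and without the first HMGN1-OE 0 h library *Elane* stayed called at -2.99 (0.0187) and *Mpo* did not at -2.24 (0.382). Neither was called with no filter on low values, with centred libraries (*Elane* -2.61 and *Mpo* -2.24), or with quantile normalization (-2.68 and -2.13), and *Mpo* was not called without the variance trend or with only the 0 h groups fitted. The direction was the same for both genes under all 12 alternatives tried. An exact permutation test of 2 libraries against 2 cannot go below p = 0.333, so no test of a single ratio is given.

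At 36 h none of the 4 members was called, against 1.26% of all genes (0.842% lower and 0.417% higher), and none had an unadjusted p under 0.05 in limma. *Mpo* differed by -0.97 (95% interval -2.18 to 0.24), *Prtn3* by -0.38 (-1.60 to 0.83), *Ctsg* by -0.30 (-1.53 to 0.93), and *Elane* by -0.25 (-1.43 to 0.93), with the median gene at -0.54. *Mpo* and *Ctsg* were lower in both HMGN1-OE libraries than in both WT libraries, as were 84.4% of all genes. The signs of *Elane*, *Prtn3*, and *Ctsg* turned, with centring of the libraries on their medians, to 0.33, 0.20, and 0.28. Without the second WT 36 h library the differences were -1.15 for *Mpo*, -0.94 for *Elane*, -0.77 for *Prtn3*, and -0.18 for *Ctsg*, and none was called.

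At 96 h 3 of the 4 members were called higher in HMGN1-OE, against 0.669% of all genes called, 0.321% higher and 0.347% lower. *Elane* differed by 2.50 (SE 0.60, limma adjusted p = 0.00626), *Ctsg* by 2.48 (SE 0.63, limma adjusted p = 0.0127), and *Mpo* by 2.39 (SE 0.62, limma adjusted p = 0.0170). *Prtn3* differed by 2.11 (95% interval 0.90 to 3.33, limma adjusted p = 0.0883). The variance came from the trend over all genes, so these SE and the interval do not hold the members' own spread. On log2 FPKM, the standard deviation of the 2 libraries at 96 h was 2.20 in WT and 1.29 in HMGN1-OE for *Mpo*. It was 1.82 and 1.22 for *Elane*, 1.68 and 1.17 for *Ctsg*, and 1.79 and 0.92 for *Prtn3*. The median gene differed by 0.36. For *Elane*, *Prtn3*, and *Ctsg* both HMGN1-OE libraries were above both WT libraries, against 10.2% of all genes, and for no member below both, against 2.97%.

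All 3 calls were lost with no filter on low values, without the variance trend, and with only the 96 h groups fitted. They were also lost with centred libraries, at 2.09 for *Elane*, 2.08 for *Ctsg*, and 1.99 for *Mpo*, and with quantile normalization, at 1.85, 1.83, and 1.88. No member was called at 96 h without the second WT 96 h library, with differences of 1.32 for *Ctsg*, 1.24 for *Elane*, 0.88 for *Mpo*, and 0.86 for *Prtn3*. Without the second HMGN1-OE 96 h library none was called either, with 1.66 for *Ctsg*, 1.64 for *Elane*, 1.48 for *Mpo*, and 1.46 for *Prtn3*. The first libraries of the 2 genotypes were close to each other, with *Mpo* at 116 and 114 FPKM and *Elane* at 129 and 168. Without the first WT 96 h library all 4 were called, at 3.37 to 3.90. The eosinophil transcript *Prg2* was called lower in HMGN1-OE at 96 h, at -2.19 (limma adjusted p = 0.00848), and its part in the result was not tested.

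**Figure D5:**
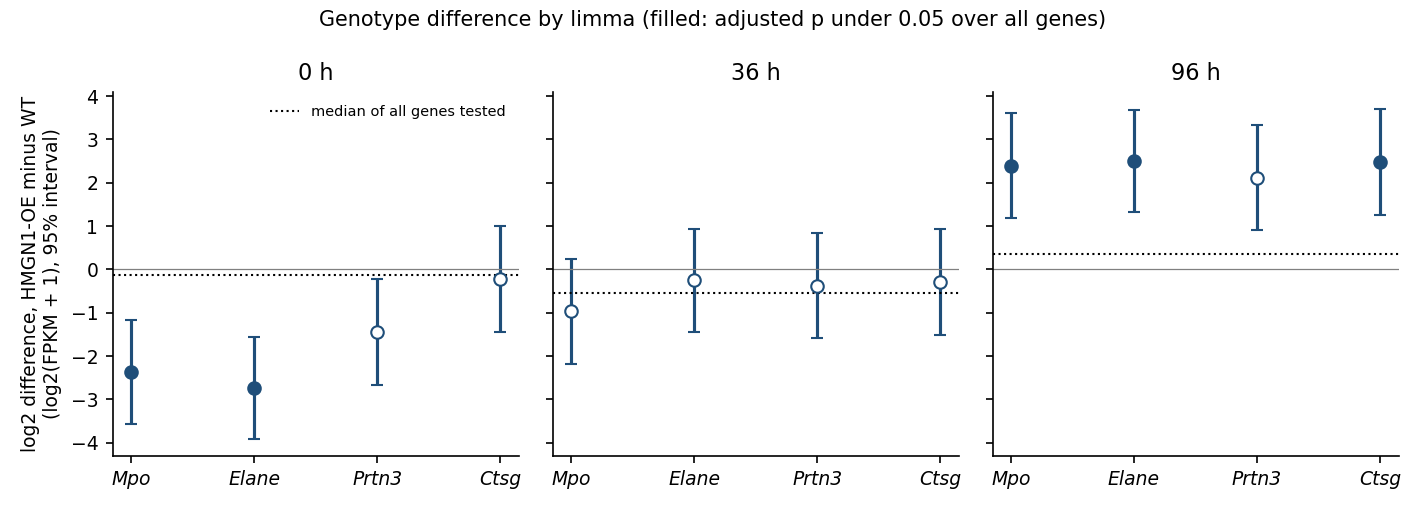
Difference of log2(FPKM + 1) between HMGN1-OE and WT for each member at 0, 36, and 96 h, with 95% intervals from limma, filled points where the adjusted p over all genes is under 0.05, and a dotted line at the median of all genes tested. Elane and Mpo lie below 0 at 0 h, all intervals cross 0 at 36 h, and Elane, Ctsg, and Mpo are called above 0 at 96 h, calls that no member keeps without the second WT 96 h library.

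The difference between the genotypes in the course over time, the interaction in the same fit, is built from the values for which the genes were chosen, so for the members it is given as a description and its threshold is no independent evidence. From 36 to 96 h it was 3.36 for *Mpo* (SE 0.87), 2.78 for *Ctsg*, 2.75 for *Elane*, and 2.50 for *Prtn3*, with the median gene at 0.92, so that the loss of each was smaller in HMGN1-OE than in WT. *Mpo* alone passed the threshold, as did 0.547% of all genes, 0.391% with a positive and 0.156% with a negative value. The value of *Mpo* was 1.85 without the second WT 96 h library and 3.54 without the second WT 36 h library, and passed the threshold in neither case. From 0 to 36 h the interaction was 2.48 for *Elane*, 1.40 for *Mpo*, 1.06 for *Prtn3*, and -0.08 for *Ctsg*. None of the 4 passed the threshold, against 0.504% of all genes (0.148% positive and 0.356% negative), and 1 of the 4, *Elane*, had an unadjusted p under 0.05 in limma.

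The 2 libraries of a group showed how far the members varied together beyond the conditions. In 4 of the 6 groups all 4 members differed in the same direction between the first and second library, and in these the median gene did so too. The widest case was WT at 96 h, where the second library was lower by 3.11 on the log2 scale for *Mpo*, 2.57 for *Elane*, 2.54 for *Prtn3*, and 2.38 for *Ctsg*, and the median gene by 0.89. In HMGN1-OE at 96 h the second library was higher by 1.83 for *Mpo*, 1.72 for *Elane*, 1.66 for *Ctsg*, and 1.31 for *Prtn3*, and the median gene by 0.28. The members differed from each other most in WT at 36 h, where *Elane* was lower in the second library by 1.37 and *Ctsg* higher by 0.23, a spread of 1.60.

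Likeness to the members was measured as the root mean square difference between centred profiles of log2(FPKM + 1) over the 12 libraries, among 8657 genes that reached a group mean of 10 FPKM. Nearest to the mean profile of the 4 members was *Plac8*, at 0.575, followed by *Ms4a3*, a gene of the granulocyte and monocyte progenitor, at 0.680. Then came *Ppapdc1b*, *BC035044*, *Ak4*, *Tma16*, *Rgcc*, *Atg12*, *Gfi1*, and *Srgn*, at 0.725 to 0.804. The last 2 are the transcription factor Gfi1 and serglycin, on which the proteases are packed. *Mpo* itself stood at 0.507 and *Prtn3* at 0.545 from that mean, *Elane* at 0.947 and *Ctsg* at 1.10. Among the members, *Elane* and *Prtn3* were the nearest pair at 0.659 and *Elane* and *Ctsg* the farthest at 2.04. Ranked among 8660 genes by distance from *Elane*, *Prtn3* stood 1st, *Mpo* 46th, and *Ctsg* 8151st. From *Prtn3*, *Elane* stood 12th, *Mpo* 3288th, and *Ctsg* 7902nd. From *Mpo*, *Ctsg* stood 3rd, *Prtn3* 6th, and *Elane* 332nd. From *Ctsg*, *Mpo* stood 104th, *Prtn3* 1520th, and *Elane* 5378th. The nearest genes outside the 4 were *BC035044* and *Plac8* for *Mpo*, *Dmkn* and *Tfec* for *Elane*, *Dmkn* and *Plac8* for *Prtn3*, and *Apex1* and *Mif* for *Ctsg*.

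Genes beside the members on the chromosome were read for the same libraries. *Bzrap1*, upstream of *Mpo*, was 44.6 and 88.2 FPKM in WT and 10.1 and 12.4 in HMGN1-OE at 0 h, and was called lower in HMGN1-OE at 0 h (-2.39, SE 0.51, limma adjusted p = 0.000368) and at 36 h (-2.22, SE 0.51, limma adjusted p = 0.00182). The 36 h call was lost without the second WT 36 h library (-2.11, limma adjusted p = 0.0702) and with centred libraries (-1.64, limma adjusted p = 0.239), and the 0 h call was kept with centred libraries (-2.26, limma adjusted p = 0.0465). Its 96 h values were 6.71 and 2.99 in WT and 4.77 and 5.81 in HMGN1-OE. *Mks1*, on the other side, was not called at any time, and *Lpo*, which encodes a related peroxidase, did not exceed 1.32 FPKM. *Cfd*, beside *Elane*, did not exceed 1.08 FPKM, and *Gzme* and *Gzmd*, beside *Ctsg*, did not exceed 0.386 FPKM. *Mcpt8*, a basophil protease gene beside *Ctsg*, was 57.2 to 524 FPKM and was not called between the genotypes. *Mpo* overlaps an antisense gene and *Prtn3* overlaps *Plppr3* on the opposite strand in GENCODE, and because the library kit does not mark strand, reads of such pairs cannot be told apart.

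Other primary granule and promyelocyte genes were compared from a list of 10, chosen with earlier results known. Of these 9 were tested, and none was called between the genotypes at 0, 36, or 96 h, against 1.36%, 1.26%, and 0.669% of all genes. At these times 1, 2, and 3 had an unadjusted p under 0.05 in limma, as did 457, 593, and 314 of the 11516 genes. The median differences of the 9 were -0.55, -0.79, and 0.47, and those of all genes -0.12, -0.54, and 0.36. A lower level in HMGN1-OE at 0 h was thus not limited to the members. In WT 6 of the 9 fell and 3 rose from 36 to 96 h, when 89.5% of all genes were called, 86.3% lower and 3.15% higher. *Ms4a3*, which had 3783 and 3244 FPKM in WT at 36 h and 286 and 67.1 at 96 h, had a log2 change of -4.65, and of -3.61 without the second WT 96 h library. *Fcnb*, *Lyz1*, and *Lyz2* rose, the last from 368 and 84.3 FPKM to 3303 and 3157. The call of *Fcnb* was lost without the second WT 36 h library (1.33, limma adjusted p = 0.0800), and *Lyz2* then changed by 3.13 in place of 4.19. *Fcnb* encodes ficolin B and the others lysozymes, of which macrophages and later neutrophils also hold much. In HMGN1-OE 3 fell and 3 rose, when 69.0% of all genes were called, 64.9% lower and 4.02% higher. With centred libraries, 3 fell and 3 rose in WT and 2 fell and 3 rose in HMGN1-OE, and calls over all genes in WT were then 53.2% higher, against 3.52% as deposited, and in HMGN1-OE 47.0% against 5.83%. Of all genes, 38.2% were then called higher and 33.7% lower in WT, and 28.6% and 32.3% in HMGN1-OE.

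Genes that process and store the members were fixed as a list of 11, all tested. Between 36 and 96 h 10 fell in WT, against 86.3% of all genes, and 9 in HMGN1-OE, against 64.9%. With centred libraries 5 fell in both genotypes, against 33.7% and 32.3% of all genes, namely *Calr*, *Canx*, *Hspa5*, *Pdia3*, and *Srgn*. *Ap3d1*, which fell in WT as deposited, and *Lyst* were called higher in both genotypes with centred libraries. The first 4 of those that fell encode chaperones of the endoplasmic reticulum. *Srgn* was 7311 and 4842 FPKM in WT at 36 h and 348 and 198 at 96 h, a fall by 4.50 on the log2 scale. *Ctsc*, the convertase of the proteases, was 256 and 300 FPKM and then 68.0 and 39.9, a fall by 2.39, near the median gene. *Lyst* rose in HMGN1-OE by 1.37. None of the 11 was called between the genotypes at 0, 36, or 96 h, against 1.36%, 1.26%, and 0.669% of all genes. None had an unadjusted p under 0.05 in limma, against 457, 593, and 314 of the 11516 genes.

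Of 10 regulators known from primary granule promoters or from their shut-off, 9 were tested. From 36 to 96 h 5 of the 9 fell in WT, against 86.3% of all genes, and 3 in HMGN1-OE, against 64.9%. With centred libraries 3 fell in both genotypes, against 33.7% and 32.3% of all genes. In that setting 5 rose in WT and 6 in HMGN1-OE, against 38.2% and 28.6%. Between 36 and 96 h *Gfi1*, *Cebpa*, and *Myb* fell in both genotypes under both scalings, in WT with log2 changes of -4.04, -3.79, and -5.23. The changes of *Gfi1* and *Myb* were -3.27 and -4.39 without the second WT 96 h library. *Myb*, an activator of early myeloid genes, was 476 and 546 FPKM in WT at 36 h and 23.4 and 6.57 at 96 h. *Cbfb* and *Runx1* fell in WT as deposited. The call of *Runx1* was lost without the second WT 96 h library (-1.08, limma adjusted p = 0.0538), and with centred libraries it was called higher. *Cebpe* and *Sfpi1* (PU.1) were not called as deposited and were called higher with centred libraries. *Sfpi1* was 217 and 134 FPKM in WT at 36 h and 173 and 90.0 at 96 h. None of the 9 was called between the genotypes at 0, 36, or 96 h, against 1.36%, 1.26%, and 0.669% of all genes. None had an unadjusted p under 0.05 in limma, against 457, 593, and 314 of the 11516 genes. The median differences of the 9 were -0.44, -0.61, and 0.37, and those of all genes -0.12, -0.54, and 0.36. The part of the regulators in the members' differences was not tested.

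Inhibitors of the proteases were a list of 10, of which 5 were tested. From 36 to 96 h 4 of the 5 fell in WT, against 86.3% of all genes, and 2 in HMGN1-OE, against 64.9%. With centred libraries 2 fell in both genotypes, against 33.7% and 32.3% of all genes. In that setting 3 rose in WT and 2 in HMGN1-OE, against 38.2% and 28.6%. *Slpi*, the secreted inhibitor of elastase, fell from 36 to 96 h, with log2 changes of -3.88 in WT (-2.86 without the second WT 36 h library, in which it was 3651 FPKM against 877 in the first) and -3.44 in HMGN1-OE. *Serpina3g* fell too, with -5.96 in WT (-5.37 without the second WT 96 h library) and -5.62 in HMGN1-OE. *Serpinb1a*, an inhibitor of all 3 proteases within the cell, had a log2 change of -1.71 in WT, less than the median gene, a call that was lost without the second WT 96 h library (-0.93, limma adjusted p = 0.139). It was 488 and 166 FPKM in WT and 396 and 579 FPKM in HMGN1-OE at 96 h. *Cstb* fell in WT by 1.44. With centred libraries *Serpinb1a* and *Cstb* were called higher in WT. None of the 5 was called between the genotypes at 0, 36, or 96 h, against 1.36%, 1.26%, and 0.669% of all genes. None had an unadjusted p under 0.05 in limma, against 457, 593, and 314 of the 11516 genes.

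The later granule classes gave the reference for timing. Of 12 secondary and tertiary granule genes, all tested, 9 rose from 36 to 96 h in WT, against 3.15% of all genes, and 10 in HMGN1-OE, against 4.02%, while *Slpi* alone fell. With centred libraries 11 rose in both, against 38.2% and 28.6% of all genes. Over the first interval *Ltf* fell in WT, where 0.617% of all genes were called (0.356% higher and 0.261% lower), and *Camp*, *Chi3l3*, *Ltf*, *Mmp8*, and *Ngp* fell in HMGN1-OE, where 1.8% were called (0.677% higher and 1.12% lower). The call of *Ltf* in WT was lost without the second WT 36 h library (-2.25, limma adjusted p = 0.0910), and none of these 0 to 36 h calls was kept with centred libraries. *Camp* was 28.1 and 19.5 FPKM in WT at 36 h and 7470 and 2609 at 96 h, and *Ltf* was 1.46 and 1.97 and then 2040 and 1033. At 36 h *Camp*, *Chi3l3*, *Mmp8*, and *Ngp* were called lower in HMGN1-OE (-2.10 to -2.79), 4 of 12 against 0.842% of all genes, and none was with centred libraries. Without the second WT 36 h library *Chi3l3* and *Mmp8* were called, at -3.10 and -3.05, and *Camp* (-2.53, limma adjusted p = 0.0663) and *Ngp* (-2.48, limma adjusted p = 0.0952) were not, with differences no smaller than before. At 96 h *Mmp9* was called lower, at -2.07 (limma adjusted p = 1.06e-06), 1 of the 12 against 0.347% of all genes called lower, and this call was lost with centred libraries. Of 14 related proteases and peroxidases, granzymes and mast cell proteases among them, 12 stayed under the filter, and *Epx* and *Mcpt8* were tested.

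Markers of other cells were read beside the genotype differences. Over the 7 progenitor markers the summed FPKM was 606 to 931 at 0 h, 339 to 1336 at 36 h, and 10.9 to 21.2 at 96 h, and *Hoxa9* was the only call between the genotypes, higher in HMGN1-OE at 0 h (2.85, 1 of 7 against 0.799% of all genes) and 36 h (2.15, against 0.417%, and 3.54 without the second WT 36 h library). Over the 10 monocyte and macrophage markers it was 89.2 to 338 at 0 h, 109 to 179 at 36 h, and 48.8 to 86.7 at 96 h, with *Irf8* called lower in HMGN1-OE at 36 h, 1 of the 9 tested against 0.842% of all genes, and *Cx3cr1* under the filter in every library. The 12 eosinophil, basophil, and mast cell markers summed to 2770 and 1354 FPKM in WT and 339.7 and 1003 in HMGN1-OE at 96 h, with *Ear6*, *Epx*, *Prg2*, and *Prg3* called lower in HMGN1-OE then (4 of 12, against 0.347% of all genes) and *Prg2* at 36 h (1 of 12, against 0.842%). The 9 neutrophil markers found summed to 65481 to 171149 FPKM at 96 h, with *Retnlg* called lower in HMGN1-OE, against 0.347% of all genes, and *S100a9* called higher, against 0.321%, a call that rests on the value of 0.0511 in the first WT 96 h library. *Retnlg* differed by -1.66, a call lost without the second WT 96 h library (-1.60, limma adjusted p = 0.159) and without the second WT 36 h library (-1.66, limma adjusted p = 0.0648), with little change in size. Of the 10 lymphoid, erythroid, and megakaryocyte markers 4 were tested and none was called at 0, 36, or 96 h, against 1.36%, 1.26%, and 0.669% of all genes. With centred libraries no gene of any of these marker lists was called between the genotypes. The part of these cells in the members' differences was not tested.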

How the data were processed

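PolyA RNA was measured after RNA was extracted from a fixed number of counted cells and synthetic ERCC RNAs were added to the extract, and libraries were made with a TruSeq kit that does not mark strand. The deposited values are FPKM per gene, which the authors normalized to the ERCC RNAs. The submitters' processing notes name HISAT, Cufflinks 2.0.0, and build mm9, whereas the study's methods name Bowtie and a loess fit on the ERCC RNAs. No counts were analysed here, so the depth per library is unknown and no counting interval is given. Values were tested as log2(FPKM + 1) with limma 3.58.1 in R 4.3.3 (6 group means, trend in the variance), for genes that reached 1 FPKM in 2 or more libraries, with Benjamini-Hochberg adjustment and a threshold of 0.05. The prior degrees of freedom were infinite, so each gene's variance came from the trend over all genes and not from its own libraries. The fit was tested on simulated data. Alternatives were a pseudocount of 0.1, no filter, a mean of at least 5 FPKM, centring on the median, quantile normalization, no trend, the groups compared alone, and each library left out, and the gene lists without the second WT 36 h and 96 h libraries and a replicate block by column digit were added after the data were seen. Changes of the members over time are log2 of FPKM with no pseudocount, except those relative to the library median, which are on log2(FPKM + 1). First and second library follow the order of the columns, and all columns of values were used. The members and lists were chosen with earlier results of these data known. Beside the members, the genes named are up to 4 per list and comparison (called with the largest change, then by mean FPKM), defining markers, the nearest profiles, and chromosomal neighbours from GENCODE M21; genes given in full sets of calls fall outside that rule and were chosen after their values were seen.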

Additional observations from a re-analysis of the deposited data

Results flagged for a closer look

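The loss of *Mpo* from 36 to 96 h differed between the genotypes in the fit, by 3.36 on the log2(FPKM + 1) scale (SE 0.87), with the smaller loss in HMGN1-OE. It passed the threshold of limma (adjusted p = 0.0237), but it is built from the time course for which *Mpo* was chosen, so that this p is no independent evidence. The level went from 7066 and 5507 to 116 and 13.5 FPKM in WT, and from 4147 and 2451 to 114 and 406 FPKM in HMGN1-OE. Over 16 alternatives the value ran from 1.85 to 4.87 and passed the threshold in 5, with limma adjusted p from 2.79e-06 to 0.808. The lowest value came without the second WT 96 h library.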

How the results depend on the processing

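Of the 4 members, 2 were called between the genotypes at 0 h, and 0 were with no filter, with centred libraries, and with quantile normalization, 1 without the trend and 1 with only the groups compared, and 0 to 2 with a library left out. At 96 h 3 were called, and 0 were with no filter, centring, quantile normalization, no trend, and only the groups compared, and 0 to 4 with a library left out. For the interaction from 36 to 96 h 1 was called, and 0 were with no filter, centring, quantile normalization, and no trend, and 0 to 4 with a library left out. At 36 h and for the interaction from 0 to 36 h 0 were called under every alternative run. No filter raises the number of genes tested, and the cause of the other changes was not tested. Signs turned as follows. At 36 h *Elane*, *Prtn3*, and *Ctsg* stood at 0.33, 0.20, and 0.28 with centring and at 0.30, 0.14, and 0.37 with quantile normalization, and with a library left out *Elane* ran from -0.94 to 0.43 and *Prtn3* from -0.77 to 0.0096. *Ctsg* ran from -0.69 to 0.25 at 0 h with a library left out, and its interaction from 0 to 36 h ran from -0.55 to 0.39 and was 0.37 with centring and 0.56 with quantile normalization. Its change in WT from 0 to 36 h was -0.018 with centring and ran from -0.011 to 0.93 with a library left out.

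Genes called over time in WT from 0 to 36 h numbered 71, and 6 with no filter, 47 with a mean of at least 5 FPKM, 1 with centring, 1 with quantile normalization, 4 without the trend, 41 with only the groups compared, and 47 to 214 with a library left out. In HMGN1-OE they numbered 207, and in the same order 21, 102, 15, 35, 58, and 492, and 103 to 154. From 36 to 96 h they numbered 10303 in WT (9203 to 10492 with a library left out) and 7942 in HMGN1-OE (3885 to 6449). Genes called between the genotypes at 0, 36, and 96 h numbered 157, 145, and 77, and with centring 12, 6, and 7. The calls for the interactions numbered 58 and 63, and 2 and 2 with centring. The split of these calls changed with centring from 58.6% to 41.7% higher at 0 h, from 33.1% to 50% at 36 h, and from 48.1% to 28.6% at 96 h. In the order of change, 2 of the 4 members kept their position in WT from 36 to 96 h with a pseudocount of 1 and 2 with centring. With a library left out, 2 to 4 did so from 0 to 36 h in WT, 0 to 4 from 36 to 96 h in WT, and 2 to 4 in each interval in HMGN1-OE. The digits that end the column names differ from the replicate numbers in the titles, so the planned block on the latter was not run. With a replicate block by the column digit, chosen after seeing the data, 2 members were called at 0 h, 0 at 36 h, 1 (*Elane*) at 96 h, and 0 for both interactions, and 54 and 162 genes from 0 to 36 h and 10137 and 7306 from 36 to 96 h in WT and HMGN1-OE. The differences between the libraries of a group correlated over genes at -0.37 to 0.178 between groups, above 0.1 in 3 of 15 pairs of groups. These correlations follow the column digit, so they cannot show whether libraries with the same title number are linked. The 2 libraries per group limit every value, and FPKM without counts leaves the precision of low values unknown.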
